A study of Mus musculus with 28 samples.

Results

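The chemokine region of mouse chromosome 11 was described through its promoter contacts, which are pairs of HindIII restriction fragments found ligated to each other by Promoter Capture Hi-C (PCHi-C). PCHi-C digests and religates cross-linked chromatin in the nucleus and then enriches ligation products that carry a captured promoter fragment, the bait. A contact was taken as a member where the midpoint of at least 1 of its fragments lay on chromosome 11 between 81500000 and 84000000 of the mm10 genome, a window of 2.5 Mb. The 4 lists of called contacts together held 1001 such contacts of 273644, and the window had 48 baits of 18175. The lists of 0h, 1h, 12h and 48h held 382, 496, 501 and 533 of them.

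The cells were C10, a mouse Pre-B line derived from HAFTL cells, and all of them carried a transgene for rat C/EBPα fused to the hormone-binding part of the estrogen receptor (C/EBPα-ER), which is active once β-estradiol is present. Uninduced cells (0h) were set beside cells at 3 later times, 1h, 12h and 48h, all of which received β-estradiol at 100 nM with 10 nM IL-3 and CSF-1. Each contact list was made by the authors from 2 merged libraries, and RNA-seq had 3 replicate libraries at each time point, 12 in all. The model is 1 cell line in which a single factor is switched on by the hormone, and no group here had the hormone or the cytokines without the transgene, so their effects cannot be told apart from that of C/EBPα.

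Chemokines are small secreted proteins that guide the migration of leukocytes through G protein-coupled receptors, and those of the CC family have a pair of adjacent cysteines near their amino terminus. Monocytes and macrophages are a major source of several of them, among them the monocyte attractants Ccl2 and Ccl7 and the inflammatory chemokines Ccl3 and Ccl4. Many CC chemokine genes arose by tandem duplication, and in the mouse they sit in a pair of clusters on chromosome 11 with the Schlafen (Slfn) genes, another tandem family that is induced in activated immune cells, between them.

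The window was split at annotated gene ends into stretches, and those described are the Asic2 side, the Ccl2-Ccl1 cluster (Ccl2, Ccl7, Ccl11, Ccl12, Ccl8 and Ccl1), the Tmem132e interval, the Cct6b-Unc45b genes, the Schlafen cluster, the Ccl5-Ccl4 cluster (Ccl5, Ccl9, Ccl6, Ccl3 and Ccl4) and the Wfdc-Synrg side. The Ccl2-Ccl1 cluster spanned chr11:82035571-82305690 and the Ccl5-Ccl4 cluster chr11:83525778-83664683. A contact counted for every stretch that held one of its fragments. The contacts rested on 349 different fragments, of which 100% began at a HindIII site in the genome sequence, with a median length of 2477 bp (168 to 24657). Genes whose start sites lie on 1 fragment therefore share a bait, as Ccl11 and Ccl7 did, and the baits of Ccl2 and of the overlapping transcript Gm17268 lay side by side.

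Sequences are shown for fragments met repeatedly by baits of the window, so that the letters of factors known from B cells and macrophages can be seen in place. The first group lies between Ccl8 and Ccl1, the next upstream of Ccl2, and the last are, of the fragments that are no bait, those met by the most baits of the window. Each is printed for 120 bases around a match, with the match in capitals, from GRCm38.p6, the build of mm10. Not every match is printed. Windows were chosen from PU.1, NF-kB and CTCF matches between Ccl8 and Ccl1, from CTCF matches upstream of Ccl2 and from C/EBP matches in the last group. A motif that is not printed for a group may therefore still be present there. The motifs searched on both strands were TTGCNNAA for C/EBP, GAGGAAGT for PU.1, for NF-kB GGGA, any base and TTTCC, and for CTCF CCA, any 2 bases, AG, any 2 bases and GGC, and each match is a run of letters only, with no measurement of binding.
Ccl8 to Ccl1, intergenic, PU.1 letters, chr11:82162528-82162647, plus strand: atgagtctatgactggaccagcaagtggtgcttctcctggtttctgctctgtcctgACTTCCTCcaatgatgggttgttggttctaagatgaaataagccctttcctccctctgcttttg
Ccl8 to Ccl1, intergenic, CTCF letters, chr11:82174910-82175029, plus strand: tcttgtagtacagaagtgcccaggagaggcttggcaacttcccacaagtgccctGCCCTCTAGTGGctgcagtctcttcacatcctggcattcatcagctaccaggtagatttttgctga
Ccl8 to Ccl1, Ccl1 intron, PU.1 letters, chr11:82180047-82180166, plus strand: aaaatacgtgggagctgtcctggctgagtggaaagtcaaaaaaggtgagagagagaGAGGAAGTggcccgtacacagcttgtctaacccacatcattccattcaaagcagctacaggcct
Ccl8 to Ccl1, Ccl1 intron, NF-kB letters, chr11:82185870-82185989, plus strand: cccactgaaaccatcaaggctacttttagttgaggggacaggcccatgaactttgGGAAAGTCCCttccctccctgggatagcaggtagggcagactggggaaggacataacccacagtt
upstream of Ccl2, Gm31522 intron, CTCF letters, chr11:82003053-82003172, plus strand: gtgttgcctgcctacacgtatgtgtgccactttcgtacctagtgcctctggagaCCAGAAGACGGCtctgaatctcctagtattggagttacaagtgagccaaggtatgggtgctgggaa
fragment met by 13 baits, Wfdc21 intron, C/EBP letters, chr11:83748805-83748924, plus strand: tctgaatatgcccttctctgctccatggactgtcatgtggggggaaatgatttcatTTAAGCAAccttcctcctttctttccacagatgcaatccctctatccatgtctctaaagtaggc
fragment met by 11 baits, between Slfn4 and Slfn3, C/EBP letters, chr11:83191080-83191199, plus strand: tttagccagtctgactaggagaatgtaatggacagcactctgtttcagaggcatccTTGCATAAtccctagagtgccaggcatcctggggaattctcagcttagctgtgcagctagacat

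How common the letters are depends on fragment length. Of stretches of chromosome 11 as long as each fragment, 38.0% held the PU.1 letters for the fragment at 82158534 and 22.8% for that at 82177067, 15.5% held the CTCF letters for the fragment at 82174836, and 28.1% for that at 81998779, which held 2 matches. The NF-kB letters, on the fragment at 82185399, were in 1.33% of such stretches. The C/EBP letters were in 55.0% of stretches as long as the fragment met by 13 baits, which held 2 matches, and in 45.1% of those as long as the fragment met by 11. All but the NF-kB match were therefore of a kind found on many fragments of this size. The share for NF-kB is that of 1 fragment. Its letters were looked for on several fragments of the group, so a match on any of them is likelier than that share. The fragment at 82177067 also held the CTCF letters in an exon of Ccl1, not printed here.

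Promoters are shown for some of the tandem neighbours, with a run of letters that they have in common. They are printed for the 250 bases before the RefSeq start (GRCm38.p6) in the direction of the gene. The set of promoters used held 6 of the 11 chemokine genes and all 7 Schlafen genes looked up (Slfn1, Slfn2, Slfn3, Slfn4, Slfn5, Slfn8 and Slfn9). That set had no entry for Ccl2, Ccl7, Ccl11, Ccl5 and Ccl4. Capitals mark the shared run and, in Ccl12 and Ccl8, also the TATAAA letters. Both features were picked after the sequences had been compared.
Ccl12, chr11:82101595-82101844, plus strand: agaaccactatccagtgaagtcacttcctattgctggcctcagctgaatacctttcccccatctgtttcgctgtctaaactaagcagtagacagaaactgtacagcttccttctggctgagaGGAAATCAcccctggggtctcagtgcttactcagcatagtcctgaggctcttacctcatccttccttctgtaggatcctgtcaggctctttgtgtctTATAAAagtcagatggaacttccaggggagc
Ccl8, chr11:82114935-82115184, plus strand: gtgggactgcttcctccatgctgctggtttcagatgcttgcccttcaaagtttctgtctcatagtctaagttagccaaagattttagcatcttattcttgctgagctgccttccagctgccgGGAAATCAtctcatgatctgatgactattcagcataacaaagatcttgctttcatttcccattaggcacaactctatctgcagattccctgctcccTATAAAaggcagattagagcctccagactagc
Ccl9, chr11:83578637-83578886, minus strand: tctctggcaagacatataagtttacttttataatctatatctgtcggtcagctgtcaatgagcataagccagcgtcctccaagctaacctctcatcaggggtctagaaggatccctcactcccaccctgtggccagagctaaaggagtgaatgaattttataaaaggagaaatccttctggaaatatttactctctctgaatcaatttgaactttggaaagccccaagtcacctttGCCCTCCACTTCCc
Ccl6, chr11:83593088-83593337, minus strand: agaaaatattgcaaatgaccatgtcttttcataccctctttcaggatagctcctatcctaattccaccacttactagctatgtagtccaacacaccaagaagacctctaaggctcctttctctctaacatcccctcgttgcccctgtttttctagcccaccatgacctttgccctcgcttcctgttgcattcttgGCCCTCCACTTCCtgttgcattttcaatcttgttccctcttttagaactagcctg
Slfn1, chr11:83116570-83116819, plus strand: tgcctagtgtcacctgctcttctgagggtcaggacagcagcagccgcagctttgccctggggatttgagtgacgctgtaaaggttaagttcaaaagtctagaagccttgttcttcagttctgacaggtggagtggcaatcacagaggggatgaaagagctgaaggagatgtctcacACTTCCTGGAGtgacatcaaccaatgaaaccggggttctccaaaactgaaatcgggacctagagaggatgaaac
Slfn2, chr11:83064862-83065111, plus strand: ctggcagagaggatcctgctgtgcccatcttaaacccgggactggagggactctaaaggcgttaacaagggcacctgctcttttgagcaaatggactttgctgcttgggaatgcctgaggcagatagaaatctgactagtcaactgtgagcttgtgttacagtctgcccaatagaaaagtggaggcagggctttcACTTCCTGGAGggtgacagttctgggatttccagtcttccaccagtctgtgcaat
Slfn4, chr11:83174936-83175185, plus strand: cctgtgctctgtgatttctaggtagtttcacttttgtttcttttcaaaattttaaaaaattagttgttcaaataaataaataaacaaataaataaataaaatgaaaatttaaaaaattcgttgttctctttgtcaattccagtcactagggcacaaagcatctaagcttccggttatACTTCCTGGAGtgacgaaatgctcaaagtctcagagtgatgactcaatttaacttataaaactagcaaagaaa

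Ccl12 and Ccl8, neighbours in the Ccl2-Ccl1 cluster, both had GGAAATCA 128 bases before the start, a run found in 323 of 32851 promoters, and TATAAA, found in 12.4% of promoters, 31 and 32 bases before it. Ccl9 and Ccl6 shared the 13 letters GCCCTCCACTTCC, found in 5 of 32851 promoters, at 14 and 55 bases before the start. The 11 letters ACTTCCTGGAG stood 74, 55 and 73 bases before the starts of Slfn1, Slfn2 and Slfn4 and in 20 of 32851 promoters. Other shared runs are not marked. Slfn9 and Slfn8, not printed, shared 20 letters found in 3 promoters. Ccl12 and Ccl9, which are not neighbours, shared 9 letters found in 152, so sharing was not particular to the pairs marked. The C/EBP letters were in 7 of the 50 promoters of the window and in 9.56% of all promoters, and the PU.1 and NF-kB letters were in none of the 50 and in 2.44% and 0.356% of all.

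The labelled change of cell type was visible in the RNA, given as TPM (a transcript's share of all transcripts of its library, scaled to the same total in each). The summed level of 7 Pre-B markers was 220 to 236 TPM at 0h, 176 to 187 at 1h, 45.5 to 61.7 at 12h and 14.8 to 23.5 at 48h. The sum of 7 macrophage markers was 3.34 to 4.61, 4.50 to 6.56, 187 to 272 and 154 to 207 TPM. Taken singly, 3 of the 6 macrophage markers tested were called higher at 12h than at 0h and all 6 at 48h. Over all genes tested the shares were 5.90% and 6.43%. From 12h to 48h, 4 of the 6 were higher and 0 lower, beside 1.91% and 5.28% of all genes. Granulocyte markers summed to at most 2.93 TPM (0 in every library of 0h and 1h), dendritic markers to at most 0.32, and the T cell, NK and erythroid markers to at most 0.11. Read depth is unknown from TPM, and between 15165 and 19473 genes per library had a value above 0. The lists hold 1 set of calls per time point, so contacts have no replicate check here and no test was made on them here.

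The window gained contacts over the time course. Its number rose from 382 at 0h to 533 at 48h, a ratio of 1.40, whereas the whole lists went from 138769 to 144072 (1.04) and the rest of chromosome 11 from 11733 to 11458 (0.977). Of 36 other stretches of chromosome 11 of 2.5 Mb with at least 100 contacts at 0h, 3 had a higher ratio, and their median was 0.957. Nearly all of the contacts stayed within the window: 99.7% over the lists had both fragments inside, against a median of 90.7% and a highest share of 99.5% in the other stretches. Its start was crossed by 0, 1, 0 and 0 contacts in the order of the lists and its end by 1, 2, 3 and 0. The 0h list was laid out differently from the later ones. It gives scores where they give whole numbers, and it held 0 contacts in both directions, against 8082, 9184 and 8517 at 1h, 12h and 48h. Every step from 0h can therefore hold a difference in how the lists were made, and how much of a step it makes up was not tested. The median distance between the fragments of a contact was 158, 165, 146 and 162 kb.

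Individual contacts changed more than their number did. Of the contacts listed at 0h or 48h, 46.0% were listed at 48h only, against 32.4% over all contacts of the lists, and 24.6% at 0h only, against 29.8%. The same shares for 1h were 41.9% new, against 29.4%, and 24.5% lost, against 29.9%, and for 12h 42.1%, against 29.4%, and 24.1%, against 33%. Of the 382 contacts of 0h, 54.5% (95% Wilson interval 49.4 to 59.4, counting error only) were listed again at 48h, close to the 55.9% over all. Of the 533 contacts of 48h, 39.02% (35.0 to 43.2) had been listed at 0h, against 53.8% over all. A contact of the same bait with a fragment within 10 kb had been listed at 0h for 64.4% of the contacts of 48h, against 75.7% over all. Many contacts of 48h whose exact pair was absent at 0h thus had a bait that already met the same neighbourhood, in the window as in the whole lists. Whether the fragment moved or nearby fragments crossed the cut-off of the calls was not tested.

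The stretches differed in direction and timing. The Ccl2-Ccl1 cluster was touched by 25, 53, 64 and 94 contacts at 0h, 1h, 12h and 48h, a ratio of 3.76 at 48h. The Ccl5-Ccl4 cluster had 79, 137, 135 and 143. Its number was thus close to that of 48h by 1h, although 81 of the 143 contacts of 48h were in the 1h list. The Schlafen cluster had 73, 57, 78 and 100 and gained after 1h.

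The Asic2 side, which borders Ccl2, had 2, 4, 11 and 23 contacts in the order of the lists, and all 23 of 48h reached into the Ccl2-Ccl1 cluster. The Cct6b-Unc45b genes, among which are the DNA repair genes Lig3 and Rad51d, were the only stretch of these with fewer contacts at 48h than at 0h (115, 104, 104 and 91). The Wfdc-Synrg side (157, 238, 225 and 202) had its highest number at 1h. The Tmem132e interval had 30, 31, 45 and 42.

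**Figure D1:**
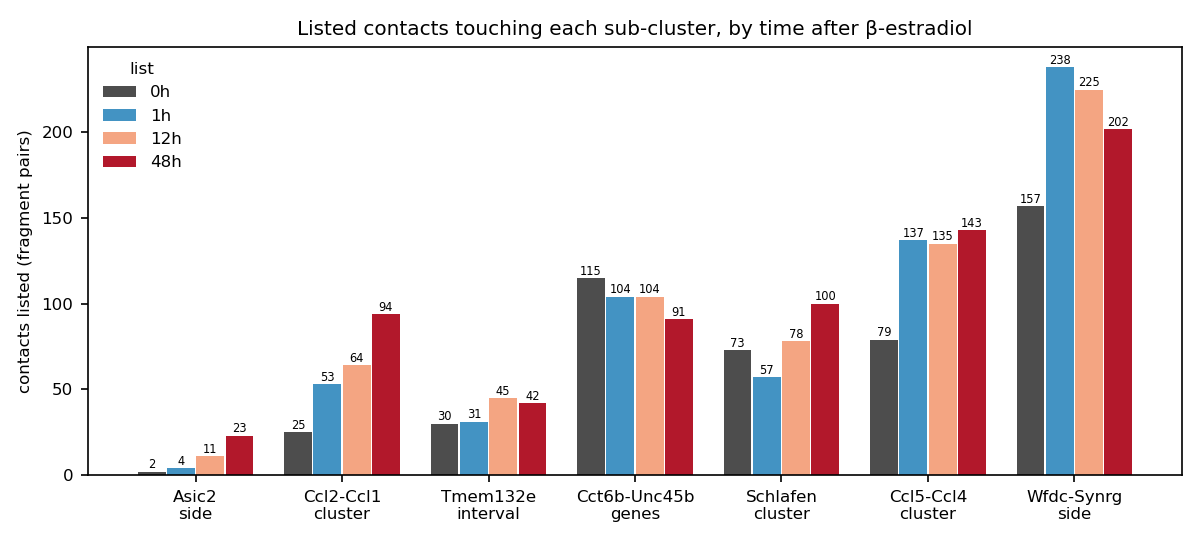
Bars give the number of listed contacts (fragment pairs) that touch each stretch described, in their order along the chromosome, with 1 bar per time point and the number above it. The Ccl2-Ccl1 cluster climbs from 25 to 94 in steps, the Ccl5-Ccl4 cluster jumps from 79 to 137 at 1h and stays there, and the Cct6b-Unc45b genes go from 115 to 91.

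No list held a contact between the Ccl2-Ccl1 cluster and the Ccl5-Ccl4 cluster or the Schlafen cluster. The 2 chemokine clusters lie far apart, with the gap running from 82305690 to 83525778. This gap is longer than the longest contact of the window in any list (664, 759, 872.5 and 668 kb). The Schlafen cluster, which starts at 82943404, lies nearer. Whether anything beyond distance goes with the absence was not tested. The partners of the 2 chemokine clusters lay in different stretches. Beside itself, the Ccl2-Ccl1 cluster met the Asic2 side (2, 3, 9 and 23), the Tmem132e interval (12, 11, 19 and 11) and the Cct6b-Unc45b genes (10, 14, 12 and 16). The Ccl5-Ccl4 cluster met the Wfdc-Synrg side (57, 91, 100 and 85). The border between the Asic2 side and the Ccl2-Ccl1 cluster was crossed by 2, 5, 11 and 23 contacts, and that between the Ccl5-Ccl4 cluster and the Wfdc-Synrg side by 113, 189, 164 and 164.

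The Ccl2-Ccl1 cluster began almost without promoter contacts of its own. Its 5 baits, without the distant Ccl1 bait that fell in the Tmem132e interval, together had 1, 26, 31 and 60 contacts in the order of the lists, a contact between 2 baits counting for each, and contacts with both fragments inside the cluster numbered 1, 25, 24 and 44. A bait was counted as changed where its contacts differed by 5 or more and by 2 times or more from 0h. At 1h the baits of Ccl2, Gm17268 and Ccl11/Ccl7 had gained by this rule, at 12h the same 3, and at 48h all 5. Of all baits of the lists, 4.84%, 6.74% and 9.06% gained at these times.

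The bait of Ccl2, the main monocyte attractant of the family, had 0, 10, 11 and 13 contacts. That of Gm17268 had 0, 8, 7 and 8 and the shared bait of Ccl11, an eosinophil attractant, and Ccl7 had 1, 8, 9 and 16. The baits at the other end of the cluster followed later, with 0, 0, 2 and 15 for Ccl12 and 0, 0, 2 and 8 for Ccl8. Beyond the single contact of 0h, contacts were thus listed from 1h at the Ccl2 and Ccl7 end and mostly at 48h at the Ccl12 and Ccl8 end.

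Most of these contacts met in 1 place. Between Ccl8 and Ccl1, 122 to 151 kb from the Ccl2 start, 11 neighbouring fragments at chr11:82157931-82186927 were each met by at least 3 of the 5 baits or lay between such fragments. This stretch of 29.0 kb took 3, 29, 26 and 41 contacts from 2, 5, 5 and 6 baits of the window. The stretch was defined from the contacts themselves, so its share of them is a description. It holds the RefSeq start of Ccl1, an attractant of T cells and monocytes, on a fragment that was not a bait, while the captured Ccl1 bait lies at the distal start annotated by GENCODE and had 0, 0, 3 and 3 contacts.

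The Ccl2 bait met the stretch in 0, 9, 7 and 8 contacts. Their deposited values, whole numbers taken as read pairs, summed to 313, 200 and 194 at 1h, 12h and 48h. The largest single one at 1h was 51, on the fragment at chr11:82169837-82171830, followed there by 29 and 23. The Ccl2 contacts with the stretch were thus all listed by 1h and their summed value was highest then, although the 3 lists were not scaled to each other.

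Gm17268 met it in 0, 8, 6 and 5 contacts and Ccl11/Ccl7 in 1, 8, 9 and 10. The single contact of Ccl11/Ccl7 at 0h, with the fragment at chr11:82174836-82177066 that carries the CTCF letters, had a CHiCAGO score of 5.69, where 5 is the lowest score listed. Asic2, a neuronal ion channel gene on the far side of Ccl2, met the stretch in 2, 3, 3 and 6 contacts, with scores of 5.98 and 5.62 at 0h. The 3 contacts listed at 0h were all close to the lowest score.

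Ccl12 met the stretch in 0, 0, 1 and 9 contacts and Ccl8 in 0, 0, 0 and 3. Of the 15 contacts of the Ccl12 bait at 48h, 13 were in no earlier list. The 8 contacts of Ccl8 at 48h included 7 that were in no earlier list.

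Contacts on the other side of Ccl2 came later. On 3 adjoining fragments inside Gm31522, at -37.6, -34.9 and -30.5 kb from the Ccl2 bait, Ccl2 contacts were listed at 12h with values of 59, 74 and 92 and at 48h with 70, 75 and 60, and in neither of the other lists. The fragment in the middle, chr11:81998779-82003338, is the one with 2 runs of CTCF letters. Gm17268 met 1 of the 3 at 12h and all 3 at 48h, and Ccl12 met the middle one at 48h with a value of 22.

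Contacts between promoters of the cluster were listed from 12h. The Ccl12 and Ccl8 baits, 14.4 kb apart, had a contact with a value of 138 at 12h and 157 at 48h. The Ccl11/Ccl7 bait met Ccl12 (32) and Ccl8 (29) at 48h only. Ccl2 met none of the other chemokine baits in any list. Over the 3 later lists 7 of the 16 partners of Ccl2 and 8 of the 16 of Ccl11/Ccl7 were in every one.

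**Figure D2:**
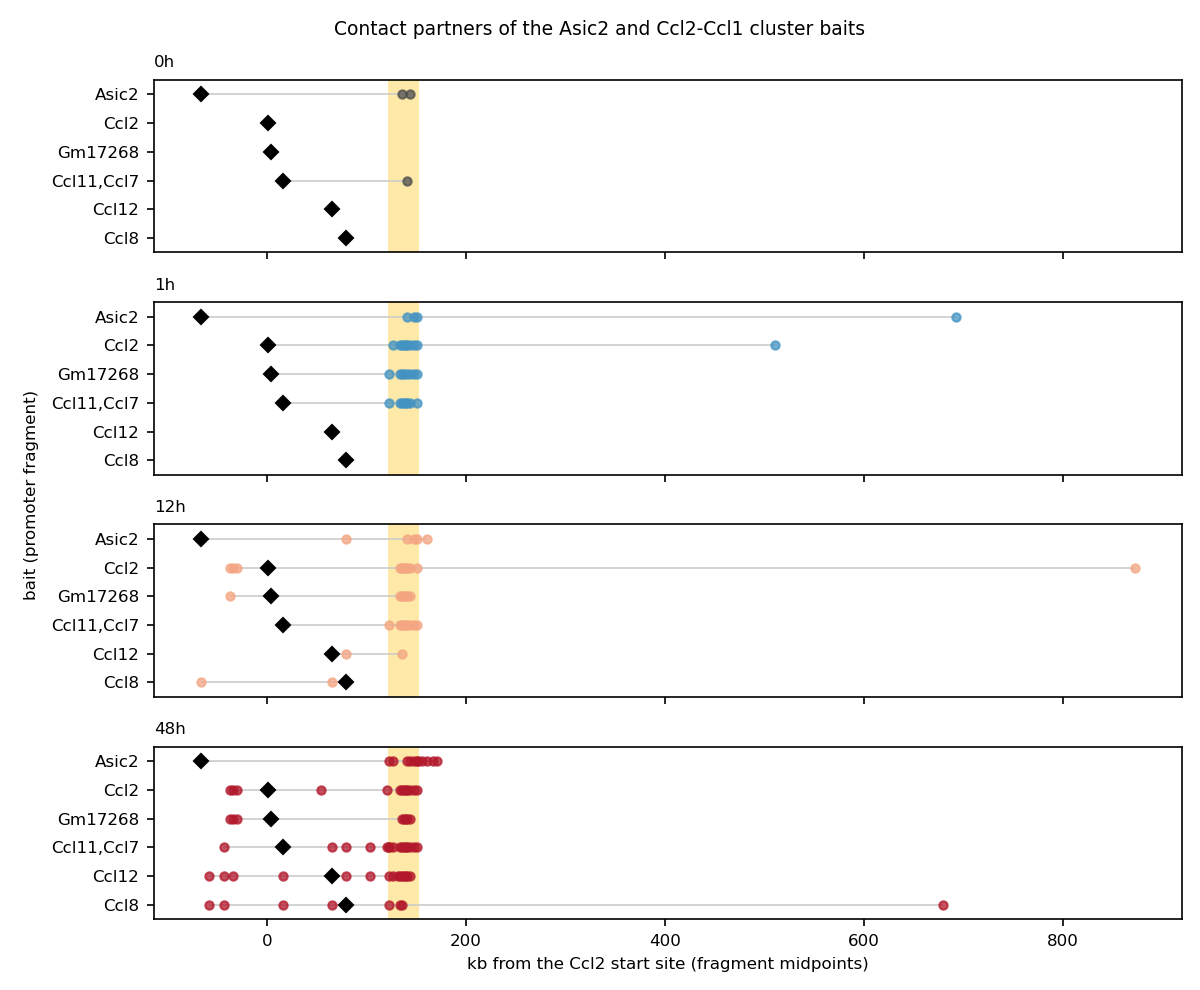
Each panel is 1 list and each line 1 bait. Diamonds mark the bait, circles its listed partner fragments, both at fragment midpoints in kb from the Ccl2 start, and the shaded band is the stretch between Ccl8 and Ccl1 at 122 to 151 kb. The stretch took 3 contacts at 0h and 29 at 1h, of which 1 at 1h came from the Cct6b/Zfp830 bait, which is not drawn. The partners upstream of Ccl2 appear from 12h, and Ccl12 and Ccl8 reach the band mainly at 48h.

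Of the contacts of the cluster listed at 0h or 48h, 75% were listed at 48h only, against 32.4% over all contacts. Of its 94 contacts at 48h, 20.2% had been listed at 0h, and 37.2% when a fragment within 10 kb was accepted, against 53.8% and 75.7% over all contacts. None of its 25 contacts at 0h had a score of 10 or more. With values of at least 10 only, 47, 45 and 80 contacts were left at 1h, 12h and 48h.

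RNA of the cluster came mainly from Ccl2. Its level was 0, 0 and 0.07 TPM at 0h, 0.93, 0.87 and 0.89 at 1h, 17.82, 15.68 and 16.91 at 12h, and 44.77, 51.53 and 61.73 at 48h. No library of a later time point overlapped with those of an earlier one. On the log2(TPM + 0.1) scale, on which changes of low genes are understated, Ccl2 was higher than at 0h by 3.06 ± 0.23 (SE) at 1h, 7.14 ± 0.23 at 12h and 8.78 ± 0.23 at 48h (limma adjusted p = 1.0e-05, 3.9e-09 and 2.2e-10, n = 3 per time point). In bulk RNA, a change in the number of cells that express a gene and a change in RNA per cell cannot be told apart. Reads of Ccl2 and of Gm17268, which overlaps it and is listed at 0 in all 12 libraries, cannot be separated by strand with the kit used.

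Ccl7, another monocyte attractant, was listed at 0 in all libraries of 0h and 1h, at 0.12, 0 and 0 TPM at 12h and at 0.50, 1.40 and 0.56 at 48h, where it passed the test against 0h (limma adjusted p = 0.00025). Ccl12, a mouse relative of Ccl2, was listed at 0.27, 0.20 and 0 TPM at 48h and at 0 before, under the level tested. Ccl11, Ccl8 and Ccl1 were listed at 0 in all 12 libraries. The baits of Ccl12 and Ccl8 thus had 15 and 8 contacts at 48h with RNA of their genes at or near 0.

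The Ccl5-Ccl4 cluster had contacts from the start. Its 5 baits together had 49, 96, 94 and 107 contacts. Those of Ccl5, Ccl9 and Ccl4 gained by the bait rule at 1h, Ccl9 and Ccl4 at 12h, and Ccl3 and Ccl4 at 48h. The cluster was also the stretch with the shortest contacts, with medians of 146, 124, 100.0 and 108 kb.

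The bait of Ccl3, which encodes an inflammatory chemokine of macrophages also called MIP-1α, had 19, 30, 27 and 54 contacts, and 54 was the highest number of any bait of the window in any list. Its partners on the side of lower coordinates numbered 9, 18, 9 and 32 and those on the other side 10, 12, 18 and 22. Of all these, 8, 12, 9 and 15 lay within its own cluster and 9, 11, 17 and 21 on the Wfdc-Synrg side. Of the 61 partners of Ccl3 in all lists, 19 were listed at 48h only and 11 in all 4. The contact of Ccl3 with the bait of Mmp28, 188 kb away, was among those of 48h only, with a value of 18.

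Ccl4, which encodes MIP-1β, the close relative of Ccl3, had 3, 13, 16 and 10 contacts. Its bait lay 9.37 kb from that of Ccl3, and their contact had a score of 5.34 at 0h and values of 264, 237 and 205 later. Ccl6 and Ccl9, both myeloid chemokines, had 15, 27, 25 and 27 and 7, 16, 17 and 11 contacts, and their contact with each other, over 16.1 kb, had a score of 7.13 and values of 124, 95 and 88. Ccl5, a chemokine of T cells and platelets, had 5, 10, 9 and 5. Both contacts between neighbouring promoters were thus present in every list. The highest values of the cluster were those of Ccl6 with a nearby fragment that is no bait, at chr11:83583612-83586625 (299, 244 and 470).

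Across the cluster, Ccl3 and Ccl6 had no contact at 0h and values of 73, 41 and 45 afterwards. Ccl9 and Ccl3 were in contact in every list, with a score of 6.30 and values of 38, 34 and 27. Ccl5 met Ccl3 at 12h and 48h, with values of 15 and 16, and met no other chemokine bait.

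The partners beyond Ccl4 were the Wfdc genes, which encode small secreted proteins with a whey acidic protein domain. Ccl3 met Wfdc17 with values of 81, 77 and 86 at 1h, 12h and 48h and not at 0h. It met Wfdc18 with a score of 5.10 and then 84, 74 and 98, and Wfdc21 with a score of 8.44 and then 58, 48 and 60. Ccl4 met Wfdc17 (52, 44 and 30) and Wfdc18 (69, 52 and 36) in the 3 later lists only. Seen from the Wfdc baits, Wfdc17 had 3, 16, 14 and 19 contacts and Wfdc18 7, 18, 18 and 23, and both had gained by the bait rule at 1h, 12h and 48h. Of these, 2, 8, 7 and 11 of Wfdc17 and 4, 12, 10 and 13 of Wfdc18 were with the Ccl5-Ccl4 cluster.

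**Figure D3:**
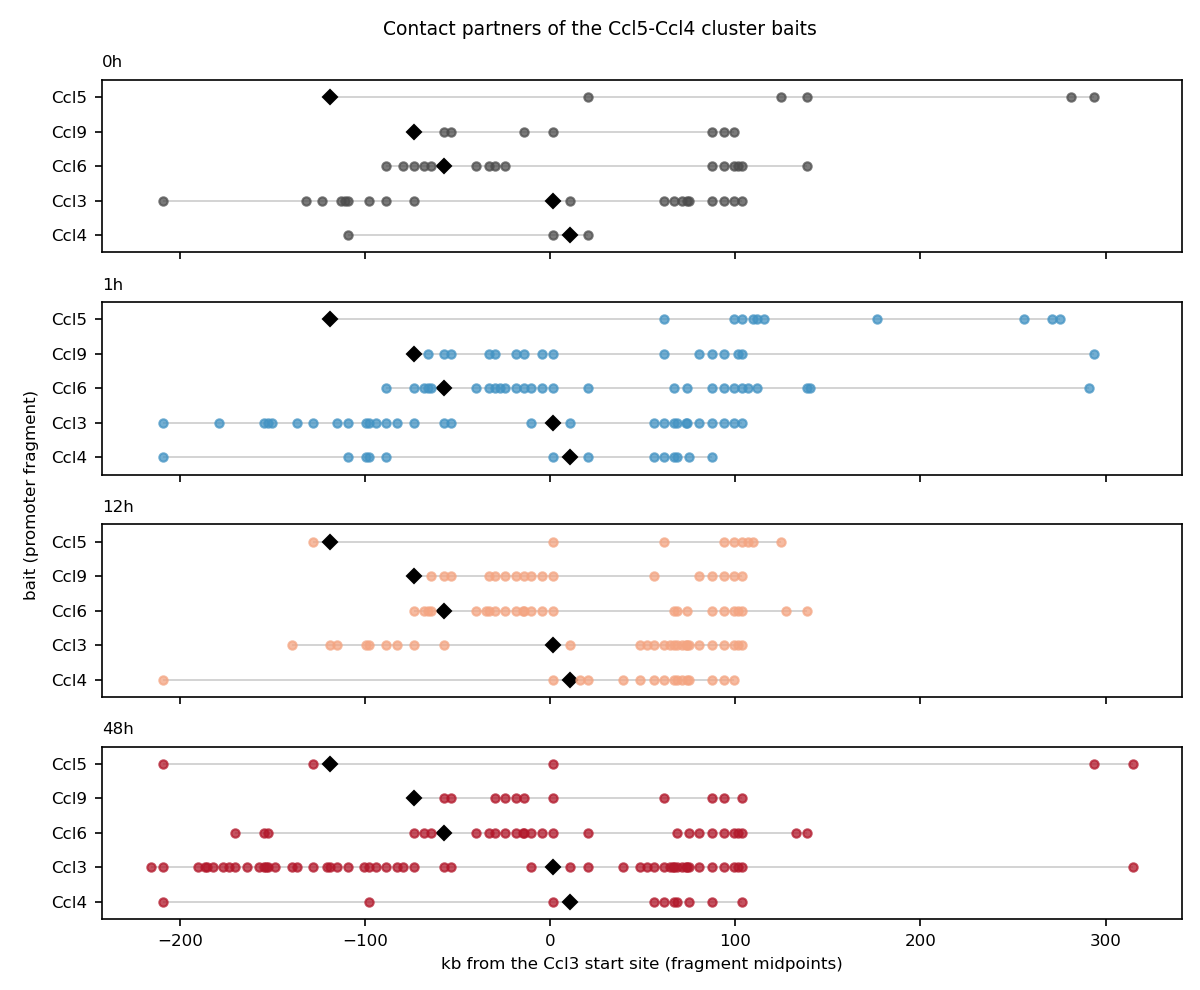
Each panel is 1 list and each line 1 bait of the Ccl5-Ccl4 cluster. Diamonds mark the bait and circles its listed partner fragments, at fragment midpoints in kb from the Ccl3 start. The row of Ccl3 fills from 19 partners at 0h to 54 at 48h, with 32 of them at lower coordinates, and several baits share partners both within the cluster and beyond Ccl4.

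Of the 79 contacts of the cluster at 0h, 59.5% (48.5 to 69.6) were listed at 48h, and of its 143 contacts at 48h, 32.9% (25.7 to 40.9) had been listed at 0h. The share kept was close to that over all contacts given above, and the share already listed at 0h was lower. With a fragment within 10 kb accepted, the shares were 82.3% and 62.2%, against 77.0% and 75.7% over all contacts. Contacts new against 0h made up 54.9% of those listed at either time, against 32.4% over all contacts.

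RNA of 4 of the 5 chemokines of the cluster was higher at 12h and at 48h than at 0h, as were 5.90% and 6.43% of all genes tested. Ccl3 was at 2.52, 0.70 and 1.57 TPM at 0h, 15.85, 17.42 and 13.43 at 1h, 26.25, 28.35 and 23.64 at 12h, and 64.4, 70.16 and 51.81 at 48h. Its change against 0h was 3.36 ± 0.34, 4.10 ± 0.34 and 5.35 ± 0.34 (SE) on the log2(TPM + 0.1) scale (limma adjusted p = 7.9e-05, 5.5e-06 and 2.3e-07). Ccl3 was the chemokine of the window with the highest level before induction.

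Ccl9 went from 0.50, 0.43 and 0.07 TPM at 0h to 3.56, 5.76 and 2.14 at 1h, 67.73, 72.86 and 96.22 at 12h and 92.15, 121.37 and 103.87 at 48h. Its log2 change was 3.27 ± 0.45, 7.69 ± 0.45 and 8.12 ± 0.45 (limma adjusted p = 0.00063, 4.0e-07 and 8.8e-08). The step from 12h to 48h, 0.43 ± 0.45, did not pass the test (limma adjusted p = 0.49).

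Ccl6, the neighbour of Ccl9, passed the adjusted p at 1h with a smaller change (1.36 ± 0.34, limma adjusted p = 0.015), and the difference in timing between the genes was not tested. It was at 0.11, 0 and 0.15 TPM at 0h, 0.21, 0.49 and 0.39 at 1h, 3.75, 4.79 and 3.83 at 12h and 43.83, 55.66 and 57.74 at 48h, with log2 changes of 4.59 ± 0.34 at 12h and 8.23 ± 0.34 at 48h (limma adjusted p = 2.8e-06 and 1.1e-08) and a further 3.63 ± 0.34 from 12h to 48h (limma adjusted p = 1.8e-05). Ccl4 was listed at 0 at 0h and 1h, at 0.30, 0.20 and 0.95 TPM at 12h and at 2.73, 2.71 and 5.70 at 48h (limma adjusted p against 0h 0.003 and 3.5e-06). Ccl5 was listed at 0 in all 12 libraries, also at 1h, when its bait had 10 contacts. Wfdc17 was at 0.35, 0.27 and 0.11 TPM at 0h and 64.1, 78.08 and 70.24 at 48h (log2 change 7.76 ± 0.32, limma adjusted p = 1.1e-08), and Wfdc18 was listed at 0 until 12h and at 0.71, 0.91 and 0.90 TPM at 48h (limma adjusted p = 1.5e-05).

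**Figure D4:**
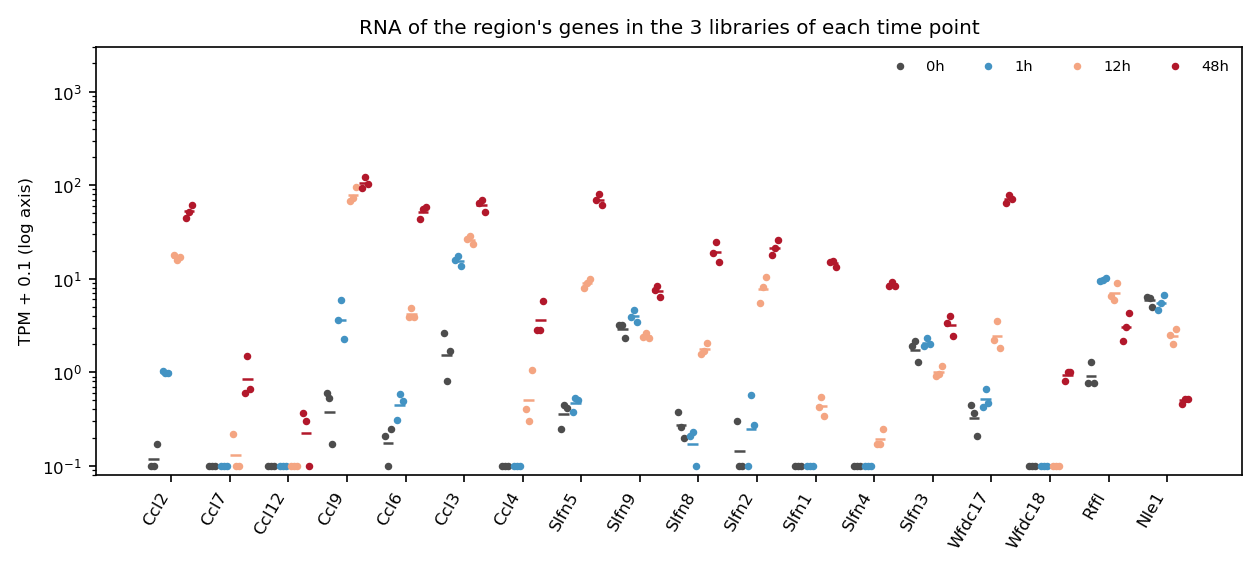
Points are the 3 libraries of each time point (TPM + 0.1 on a log axis) for named genes of the window, and the short lines are means on the log scale. Ccl2, Ccl9 and Ccl3 are already higher at 1h, Slfn1, Slfn4 and Wfdc17 climb mainly between 12h and 48h, and Nle1 falls.

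Schlafen proteins are nucleic acid binding regulators of growth and of antiviral defence. The 8 baits of their cluster had 58, 55, 76 and 98 contacts, and contacts with both fragments inside the cluster numbered 30, 27, 35 and 68. At 48h the baits of Slfn9 (5, 3, 6 and 13) and Slfn8 (2, 1, 4 and 10) had gained by the bait rule. Slfn4 had 11, 15, 18 and 21 contacts, all at lower coordinates, and those with its own cluster rose from 4 to 9, 9 and 16. The bait of Slfn10-ps, a pseudogene, had 10, 10, 10 and 7. With values of at least 10 only, the cluster had 53, 55 and 56 contacts at 1h, 12h and 48h, so its gain lay mainly in contacts of lower value. The values of its pairs in both lists were lower at 48h than at 1h (median log2 ratio -0.58, beside -0.18 over all pairs). The lists were not scaled to each other, and the cause was not tested.

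The fragment met by 11 baits, chr11:83190117-83191473 at the end of Slfn4, had contacts with 7, 6, 7 and 8 of them. Another, at chr11:83219977-83221754 with no annotated gene, was met by 9 baits, 5, 2, 4 and 8 of them in the successive lists. These 2 fragments took contacts from the Schlafen baits and from Unc45b, Nle1 and Cct6b on the far side.

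RNA of 6 of the 8 Schlafen genes tested rose at 48h, when 6.43% of all genes tested did. Slfn5 was at 0.15, 0.35 and 0.31 TPM at 0h, 0.28, 0.43 and 0.40 at 1h, 7.88, 8.87 and 9.82 at 12h and 69.29, 80.73 and 60.68 at 48h, a log2 change of 7.61 ± 0.25 (limma adjusted p = 1.6e-09). Slfn1 and Slfn4 were listed at 0 in all libraries of 0h and 1h. They stood at 0.33, 0.45 and 0.24 TPM and at 0.07, 0.07 and 0.15 at 12h, and at 15.00, 15.32 and 13.29 and 8.30, 9.18 and 8.33 at 48h (limma adjusted p against 0h 4.4e-09 and 1.4e-08).

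Slfn2 (log2 change 7.21 ± 0.59, limma adjusted p = 1.7e-06), Slfn8 (6.14 ± 0.36, 1.3e-07) and Slfn10-ps (3.63 ± 0.39, 1.6e-05) also rose. Slfn9 and Slfn3 passed the adjusted p at 48h with smaller changes, 1.37 ± 0.20 and 0.87 ± 0.26 (limma adjusted p = 0.00015 and 0.016). At 0h these were the only 2 members with a mean above 1 TPM. Schlafen genes are near-identical in parts, so reads may have been shared among them, and Slfn5os and Gm20234 overlap Slfn5 and Slfn2 without strand to separate them.

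Baits away from the chemokine and Schlafen genes showed other patterns. Rffl, a ubiquitin ligase gene, had 10, 5, 3 and 5 contacts and was counted as having fewer at 1h, 12h and 48h, the only bait of the window at 1h and 48h, where 4.63% and 7.90% of all baits had fewer. At 12h it was 1 of 3 baits counted so, when 6.65% of all baits had fewer. The bait of Heatr9 and Gm23247, next to Ccl5, had 6, 22, 14 and 10 contacts, of which 6, 21, 11 and 8 were with the Wfdc-Synrg side, and Heatr9 was at 0.08 TPM or less in every library. Heatr6 had 39, 36, 29 and 20. The fragment met by 13 baits, chr11:83747984-83749801 in an intron of Wfdc21, was in contact with 9, 8, 8 and 8 of them, so the fragment met by most baits, among those that are no bait themselves, was shared in all lists.

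**Figure D5:**
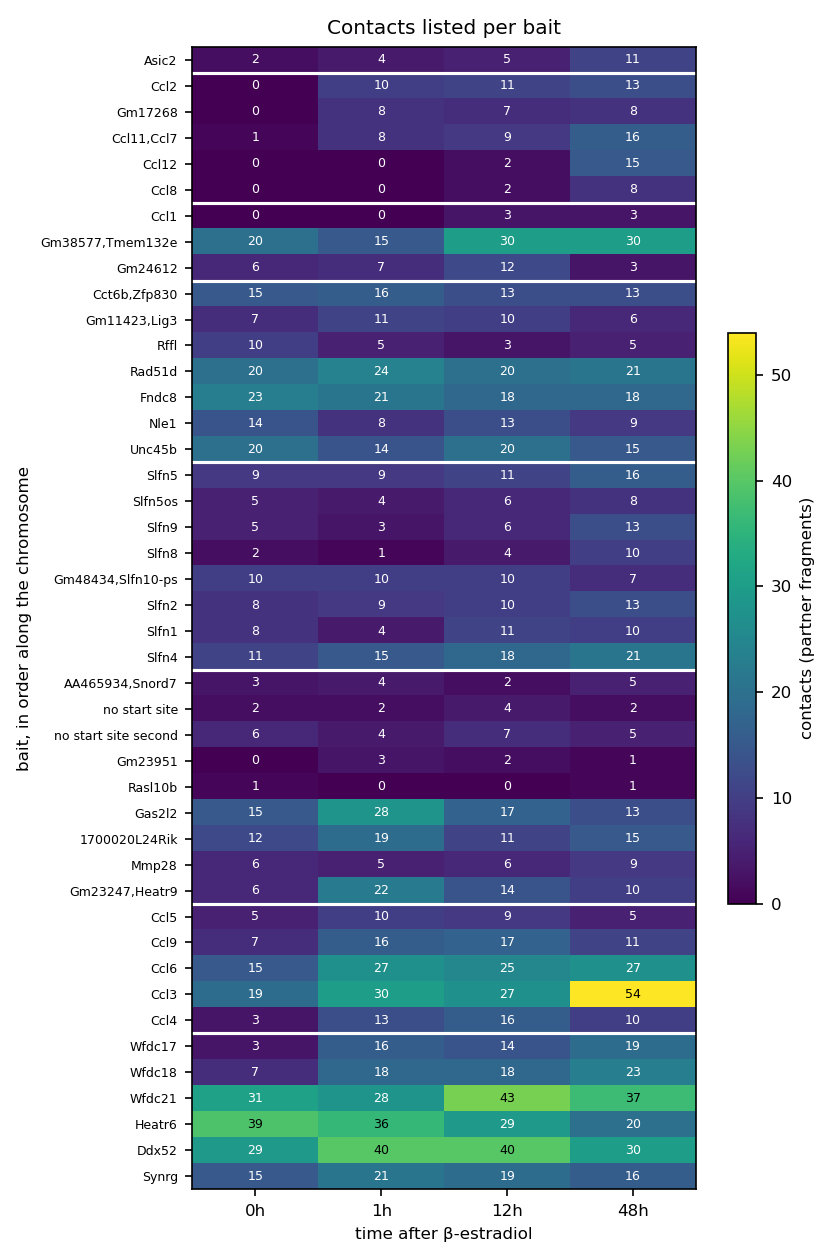
Numbers and colours give the listed contacts (partner fragments) of each bait reported at each time point, with baits in chromosome order and white lines between stretches. The 5 baits of the Ccl2-Ccl1 cluster start at 0 or 1, Ccl3 reaches 54 at 48h, and Heatr6 goes from 39 to 20. Baits with several start sites carry each name, and baits without an annotated start site are marked so.

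In all, 9 of the 48 baits had gained by the bait rule at 1h, 10 at 12h and 12 at 48h, against 4.84%, 6.74% and 9.06% of all baits. At 48h these were Asic2, Ccl2, Gm17268, Ccl11/Ccl7, Ccl12, Ccl8, Slfn9, Slfn8, Ccl3, Ccl4, Wfdc17 and Wfdc18. At 1h they were the first 3 of the Ccl2-Ccl1 cluster with Heatr9, Ccl5, Ccl9, Ccl4, Wfdc17 and Wfdc18. Neighbouring baits share partner fragments and are not replicates of each other.

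Over the 91 genes with a start site in the window, 43 passed the filter of a mean of 0.1 TPM and were tested. Calls required a limma adjusted p under 0.05 and a log2 change beyond 2. At 1h, 4 genes were higher (Ccl2, Ccl9, Ccl3 and Rffl), where 3.59% of all genes tested were, and 0 were lower by limma (0.378%), also at an unadjusted p under 0.05. At 12h, 14 were higher (5.90%) and 0 lower by limma (1.83%), or 3 lower at an unadjusted p under 0.05 without the fold threshold. At 48h, 17 were higher (6.43%) and 2 lower (10.0%). These 2 were Nle1, a ribosome assembly factor (6.24, 6.19 and 4.94 TPM at 0h, 0.36, 0.42 and 0.42 at 48h, log2 change -3.55 ± 0.21, limma adjusted p = 1.4e-07), and the non-coding AA465934 (1.73, 3.88 and 3.76 TPM, then 0, 0 and 1.56, limma adjusted p = 0.0059). By the adjusted p alone, 10, 24 and 28 of the 43 passed in either direction at 1h, 12h and 48h, against 25.5%, 30.1% and 43.1% of all genes, and 27 from 12h to 48h, against 35.8%. The median log2 change of the 43 was 0.46, 1.15 and 0.91 at 1h, 12h and 48h, beside 0.59, 0.34 and -0.18 over all genes tested. The filter kept genes through their high time points, so the count is of genes expressed at some time.

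From 12h to 48h, 10 genes of the window were higher (1.91% of all genes) and 4 lower (5.28%), or 16 and 1 after median-of-ratios scaling. The 17 genes higher at 48h than at 0h were Ccl2, Ccl7, Ccl9, Ccl6, Ccl3, Ccl4, the 6 Schlafen genes above, Wfdc17, Wfdc18 and the pseudogenes Gm11425 and Gm48467 and the antisense transcript Gm20234. Rffl was at 0.66, 1.18 and 0.66 TPM at 0h, 9.39, 9.49 and 9.96 at 1h, 6.44, 5.77 and 8.87 at 12h and 2.08, 2.97 and 4.21 at 48h, with log2 changes of 3.42 ± 0.29, 2.95 ± 0.29 and 1.76 ± 0.29 (limma adjusted p = 2.2e-05, 2.0e-05 and 0.00037). Its RNA thus rose at 1h, when its contacts went from 10 to 5.

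Set beside the baits, 14 of the genes higher at 48h had their start site on a bait. For 13 of them the bait had more contacts at 48h than at 0h, the exception being Slfn10-ps, with a median difference of 9. Of 10 tested genes on baits that did not pass the adjusted p, whatever their log2 change, 4 had more contacts and 6 fewer, with a median of -1.5. Of 20 genes under the level tested, 12 had more, 6 fewer and 2 as many, with a median of 3. The 8 genes that passed the adjusted p only had 4 with more and 4 with fewer, and the 2 lower genes 1 of each. No share of all baits with any more contacts at 48h is set beside these counts. The window as a whole gained contacts, with a ratio of 1.40 at 48h against 1.04 for the whole lists. Genes on 1 bait share its number, and the stretches differ in both measures, so these counts describe the window and were not tested. They give no link between RNA and contacts.

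The receptors of these ligands were followed in the same libraries. Of 14 CC chemokine receptor genes, 4 passed the filter and were tested, 3 were listed at 0 in all libraries, and 4 were higher at 48h, when 6.43% of all genes tested were. Values are given for 3 of them. Ccr1, a receptor for Ccl3 and its relatives, was at 0.06, 0 and 0.02 TPM at 0h and 11.02, 11.96 and 9.69 at 48h (log2 change 6.46 ± 0.29, limma adjusted p = 1.8e-08). Ccr2, the receptor for Ccl2 and Ccl7, was at 2.45, 1.35 and 1.02 and at 38.19, 41.41 and 38.35 TPM (4.62 ± 0.27, 1.2e-07). Ccrl2, a non-signalling relative, was at 0.09, 0 and 0.11 and at 0.74, 1.07 and 1.56 TPM (2.89 ± 0.46, 0.0003). Of 10 CC chemokine genes outside the window, 7 were listed at 0 in all libraries, and Ccl25, the only one tested, was not called (0.64 ± 0.41 at 48h, limma adjusted p = 0.23).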

How the data were processed

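The authors mapped PCHi-C reads to mm10 with HiCUP, merged 2 replicates per time point and called contacts with CHiCAGO at a cut-off of 5. Each contact deposited at 0h carries a CHiCAGO score, whereas those deposited for later time points carry a whole-number count whose unit is not named, taken here as read pairs, so values were not compared between 0h and later lists. Contacts listed in both directions were counted once. RNA-seq reads were trimmed (Trim Galore 0.6.2), mapped with HISAT2 2.1.0 and deposited by the authors as TPM from RSEM. All 16412 genes with a mean of at least 0.1 TPM over the 12 libraries were fitted with limma 3.58.1 (R 4.3.3) on log2(TPM + 0.1), with time point as the only term and eBayes with trend, after a check on simulated data. P-values were adjusted by Benjamini-Hochberg over all genes tested. The study tested counts with DESeq2, which TPM do not allow. Other steps used Python 3.11.15 and pandas 2.3.3, and start sites came from GENCODE M21. Named genes are the chemokine, Schlafen and other genes of the fixed stretches, the called genes of the window and the baits with the most contacts and largest changes. Members, lists and stretches were chosen with earlier results of these data known. Whether replicates came from separate cultures is stated only as biological replicates. Same-numbered libraries did not deviate together in every pair (correlations from -0.0123 to 0.257), so they were not treated as pairs. Those numbered 3 did so in each comparison. Their correlations were 0.257, 0.0698 and 0.255 for 1h, 12h and 48h with 0h and 0.193 for 48h with 12h. Their correlations with other numbers were all negative. Counts with replicate number as a block are given below. Alternatives varied pseudocount, filter, scaling, trend, libraries in the fit, replicate block, left-out replicates, fold threshold, score and value minimum, and tolerance. Hi-C data were not used here, and some genes, with the results that need them, are not reported here.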

Additional observations from a re-analysis of the deposited data

How the results depend on the processing

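Each contact list is a single set of calls at 1 cut-off, so a contact missing from a list may lie just under it. With 0h scores of at least 10, 50 of 382 contacts of the window were left, 0 in the Ccl2-Ccl1 cluster, 8 in the Schlafen cluster and 13 in the Ccl5-Ccl4 cluster. Values of at least 10 left 56 of 100 Schlafen contacts at 48h. With fragments within 10 kb accepted, the share of 0h contacts kept at 48h was 80.9% in the window, 72.6% in the Schlafen and 82.3% in the Ccl5-Ccl4 cluster, and the share of 48h contacts already at 0h was 64.4%, 68% and 62.2%, and 37.2% in the Ccl2-Ccl1 cluster. Over all contacts these shares were 77.0% kept and 75.7% already at 0h. For 0h scores of at least 10 the share kept was 86% in the window and 76.9% in the Ccl5-Ccl4 cluster. Fragment overlap in place of midpoints, both fragments inside, and pairs counted as listed left all counts of contacts within 1.5 times.

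A pseudocount of 1 lowered the window's higher genes to 2 at 1h, 7 at 12h and 6 from 12h to 48h, and the lower ones to 1 at 48h and 0 from 12h to 48h. A log2 threshold of 1 gave 1 lower gene at 12h, 7 at 48h and 8 from 12h to 48h. Only the 6 libraries compared gave 1 lower gene at 48h. From 12h to 48h, median-of-ratios scaling gave 16 higher and 1 lower, and scaling without the 20 most abundant genes gave 1 lower. Leaving out 1 library at a time gave 2 to 6 lower genes there, with 2 without the second library of 48h, and 16 to 18 higher ones at 48h against 0h. With replicate number as a block the counts were 4, 14 and 17 higher and 0, 0 and 2 lower, as without it. Over all genes, 48h calls were 1056 higher and 1648 lower, or 1508 and 1246 after median-of-ratios scaling, which moved the median change from -0.18 to 0.07 (at 1h from 0.59 to 0.02). Of the genes called at 48h, Wfdc18, Ccl7, Gm48467, Gm20234 and AA465934 lost the call with a pseudocount of 1, AA465934 also with only the 6 libraries, and Gm20234 also with a pseudocount of 0.01 and without the first library of 0h or of 48h, and the cause was not tested.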
